A study of Rattus norvegicus with 172 samples.

Results

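Hyaluronan is a long unbranched sugar polymer that hyaluronan synthases build at the plasma membrane and extrude into the extracellular matrix. The set followed here comprises the synthases Has1 and Has2, the binding proteins Tnfaip6 (TSG-6, which transfers heavy chains of inter-alpha-inhibitor onto hyaluronan) and Ptx3 (a pentraxin that takes part in cross-linking the modified polymer), and the cell-surface receptor Cd44. In the central nervous system hyaluronan is the backbone to which lectican proteoglycans and link proteins attach, and in inflamed tissue its modified form binds leukocytes through CD44. The 5 genes were chosen by symbol, with earlier results of these data known. Has2, Tnfaip6 and Cd44 had probe sets in the array annotation used here, so 3 of the 5 genes were analysed, out of 14218 genes in all. Has1 and Ptx3 were not analysed here. Tnfaip6 and Cd44 each had 2 probe sets and Has2 had 1. The brightest probe set, by its mean in cord, stands for each gene, 1371194_at for Tnfaip6, 1387548_at for Has2 and 1368921_a_at for Cd44. The other probe set of Tnfaip6 correlated with the chosen one at r = 0.963 over the cord arrays, and that of Cd44 at r = 0.951.

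Female Wistar rats, 2 months old, had the thoracic cord cut at T7-8 and a 5 mm piece removed. The gap was left untreated (lesion control, 60 arrays), or received an empty chitosan tube (tube alone, 44 arrays) or a chitosan tube seeded with carriers of the growth factor neurotrophin-3 (NT-3 tube, 60 arrays). Blocks of 5 mm with dura and meninges were taken rostral to the gap (62 arrays), at the lesion (39 arrays) and caudal to it (63 arrays) on days 1, 3, 10, 20, 30, 60 and 90, the lesion segment from day 3 on. Normal cord gave 3 arrays and a universal reference RNA 5. Each array of injured cord held RNA pooled from 4 animals, and each of the 55 injured groups had 3 arrays, apart from tube alone rostral on day 10, which had 2. For tube alone, lesion segment arrays were from day 3 only. All injured groups share the removal of cord tissue, so lesion control is set against normal cord for injury. The arms are set against each other for what was placed in the gap. No normal or sham group was matched to the days, so operation, age and elapsed time cannot be told apart from injury. Values are log2 RMA signals, on which 1 unit is a factor of 2. Differences are given with standard errors, and "called" means a Benjamini-Hochberg adjusted p under 0.05 in limma over all genes tested in that contrast.

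The starts of both genes that were high in every injured group are shown because they could be read from RefSeq's promoter table. The sequences are the 250 bases before the annotated start in the GRCr8 build, 5′ to 3′ on the gene's strand, at chr3:56911148-56911397 on the plus strand for Tnfaip6 and chr3:109699425-109699674 on the minus strand for Cd44. Capitals mark a match to the AP-1 motif TGANTCA.
Tnfaip6: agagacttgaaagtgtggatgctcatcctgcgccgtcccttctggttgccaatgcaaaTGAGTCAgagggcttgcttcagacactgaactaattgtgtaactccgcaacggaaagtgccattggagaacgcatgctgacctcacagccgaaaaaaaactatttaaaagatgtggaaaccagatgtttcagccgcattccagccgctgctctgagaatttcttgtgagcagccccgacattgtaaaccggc
Cd44: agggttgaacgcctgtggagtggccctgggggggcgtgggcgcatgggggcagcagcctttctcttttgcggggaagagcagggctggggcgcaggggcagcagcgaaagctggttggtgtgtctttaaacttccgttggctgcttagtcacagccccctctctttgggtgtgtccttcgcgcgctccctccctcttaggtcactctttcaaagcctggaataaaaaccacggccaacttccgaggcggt
Both strands were searched for TGANTCA, for the STAT motif TTCNNNGAA, for the TATA box TATAAA and for the kappaB consensus. Tnfaip6 had 1 match, to TGANTCA, from position -192 to -186 relative to the start. Cd44 had none of these letters in this window. Of 33469 promoter windows of the same length, 6.34% held TGANTCA, 7.67% the STAT motif, 12.9% TATAAA and 6.33% the kappaB consensus. A match is a description of letters and was not tied to any measurement here.

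Array medians lay between 7.10 and 7.25. The MHC class I gene RT1-CE10, which was 6.66, 6.54 and 6.46 in normal cord, separated groups by arm and day. In rostral lesion control it was 6.78, 6.65 and 6.71 on day 1 and 10.73, 11.13 and 11.00 on day 30. Its difference is therefore given for the days of the members' called differences between arms. It is not given for differences between arms without a call, for the interaction or for the pathway genes. Nor is it given beside differences between days, between segments or from normal cord. Differences between days and from normal cord can cross the same divide, and its part in them was not tested. In lesion control on day 3, 7 of 7 fibroblast and meningeal markers were higher than in normal cord both at the lesion and rostrally, and 5 of 6 astrocyte markers were lower at the lesion, where 4 of 4 skeletal muscle markers were above the rostral segment. On that day 42.3% of all genes were called higher and 34.8% lower at the lesion, 29.9% were called higher rostrally, and 37.1% were higher at the lesion than rostrally. A bulk level cannot tell fewer cells of a type from less RNA per cell.

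Tnfaip6, which is secreted, had the largest measured log2 difference from normal cord of the 3 genes. Normal cord read 7.66, 7.08 and 7.77. Rostral lesion control read 12.34, 11.73 and 12.82 on day 1 and 12.90, 12.65 and 12.70 on day 3, 38.0-fold over normal cord on day 3 (5.25 ± 0.23, adjusted p = 4.09e-24). Every injured array lay above the 3 normal arrays, with the lowest injured array at 9.24. The level then fell and recovered without returning to normal. Rostral arrays were 10.73, 11.00 and 11.30 on day 10, 11.72, 11.71 and 11.46 on day 20, 11.23, 10.20 and 11.18 on day 30, 12.33, 11.95 and 11.89 on day 60 and 11.61, 11.50 and 11.76 on day 90. The fall from day 3 to day 10 was called (-1.74 ± 0.23), as were the fall from day 20 to day 30 (-0.76 ± 0.23) and the rise from day 30 to day 60 (1.19 ± 0.23). Both later steps involve day 30, when 1 array (10.20) lay apart from the other two. RT1-CE10 was high in rostral lesion control on that day, and its part in these steps was not tested.

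Caudal lesion control followed a like course for Tnfaip6, with 12.10, 12.18 and 13.10 on day 1, 12.41, 12.50 and 11.98 on day 3 and 10.58, 10.79 and 10.98 on day 10. The fall to day 10 was called (-1.51 ± 0.25), and so were the rises from day 10 to day 20 (1.14 ± 0.25) and from day 30 to day 60 (0.86 ± 0.25). At the lesion the arrays read 11.30, 10.99 and 11.49 on day 3, 10.39, 10.73 and 10.38 on day 10, and 9.71, 9.49 and 10.03 on day 60. Against normal cord the lesion difference ran from 2.24 ± 0.22 on day 60 to 3.76 ± 0.22 on day 3 (13.5-fold). The caudal difference ran from 3.28 ± 0.25 on day 10 to 4.96 ± 0.25 on day 1 (31.1-fold). Tnfaip6 was called higher on 7 of 7 days rostrally, 6 of 6 at the lesion and 7 of 7 caudally.

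Has2, the inducible synthase measured here, was highest at the lesion on day 3, the earliest lesion arrays, and lower on each later day. Normal cord read 5.57, 5.64 and 5.70, under the level of 6.55 that marked dim genes, where RMA compresses differences. Lesion arrays of the lesion control read 8.75, 8.72 and 8.70 on day 3 (3.09 ± 0.22, adjusted p = 6.33e-14), at least 4.51-fold higher when normal cord is set at the dim level. They read 6.75, 6.96 and 6.96 on day 10 (1.25 ± 0.22), 6.38, 6.71 and 6.43 on day 20 (0.87 ± 0.22) and 5.86, 6.31 and 6.46 on day 30 (0.57 ± 0.22, adjusted p = 0.0218). On day 60 they were 5.56, 5.81 and 5.90 and on day 90 5.65, 5.68 and 5.36, overlapping normal cord, with differences of 0.12 ± 0.22 and -0.07 ± 0.22 that were not called. The fall from day 3 to day 10 was called (-1.83 ± 0.22, adjusted p = 4.71e-08). The day 30 call was lost without arrays numbered 2, without those numbered 3 and without the first normal array.

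Rostrally and caudally Has2 moved little. Rostral lesion control read 5.95, 6.27 and 6.06 on day 1 and 6.31, 6.22 and 5.90 on day 3, differences of 0.46 ± 0.13 and 0.51 ± 0.13. Caudal arrays read 5.69, 6.09 and 6.34 on day 1 (0.40 ± 0.16) and 5.95, 6.00 and 6.15 on day 3 (0.40 ± 0.16). These 4 differences were called, but all 12 arrays lay below 6.55, and the caudal arrays of day 1 overlapped normal cord. Has2 entered the rostral fit through the NT-3 tube group of day 1 and the tube alone group of day 3, and the caudal fit through tube alone on day 3. On the remaining days the Has2 difference lay between -0.24 and 0.15 rostrally and between -0.31 and 0.18 caudally, with no call. The rostral day 1 call was lost without arrays numbered 2. Both caudal calls were lost without arrays numbered 2 and without the first or second normal array, and that of day 1 also without the third and with only the compared groups.

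Cd44, a hyaluronan receptor of leukocytes and reactive glia, read 8.55, 8.07 and 8.35 in normal cord and was raised on every day in each segment. Rostral lesion control ran from 9.87 to 10.59 over its 21 arrays, with differences from 1.71 ± 0.17 on day 20 to 1.98 ± 0.17 on day 3. No step between days was called there. At the lesion the arrays read 11.08, 11.19 and 11.17 on day 3 (2.82 ± 0.13, 7.08-fold), 10.23, 10.07 and 10.13 on day 10 and 9.76, 9.77 and 9.87 on day 90 (1.48 ± 0.13). The fall of 1.00 ± 0.13 from day 3 to day 10 was called (adjusted p = 2.56e-07). Caudal arrays read 10.18, 10.56 and 10.99 on day 1 (2.25 ± 0.16) and 9.61, 9.75 and 9.57 on day 10 (1.32 ± 0.16). Caudal Cd44 fell by 0.41 ± 0.16 from day 1 to day 3 and by 0.52 ± 0.16 from day 3 to day 10, rose by 0.48 ± 0.16 from day 30 to day 60 and fell by 0.58 ± 0.16 from day 60 to day 90.

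Over the members and days, 16 of 21 tests against normal cord were called higher rostrally, 16 of 18 at the lesion and 16 of 21 caudally, where 26.2%, 37.8% and 24.8% of all gene-by-day tests were called higher. None was called lower. In the NT-3 tube arm the counts were 17 of 21, 17 of 18 and 16 of 21 (27.8%, 39.7% and 27.2% of all tests), and in tube alone 16 of 21, 3 of 3 and 16 of 21 (28.5%, 39.7% and 25.6%). These comparisons share the 3 normal arrays and are not independent. The members were chosen with earlier results of these data known, so the counts set beside these shares are descriptions. Of 51 steps between neighbouring days in lesion control 13 were called, 4 upward and 9 downward, against 8.54% and 10.2% of all tests. Without arrays numbered 1, and likewise without those numbered 2, 6 steps were called.

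**Figure D1:**
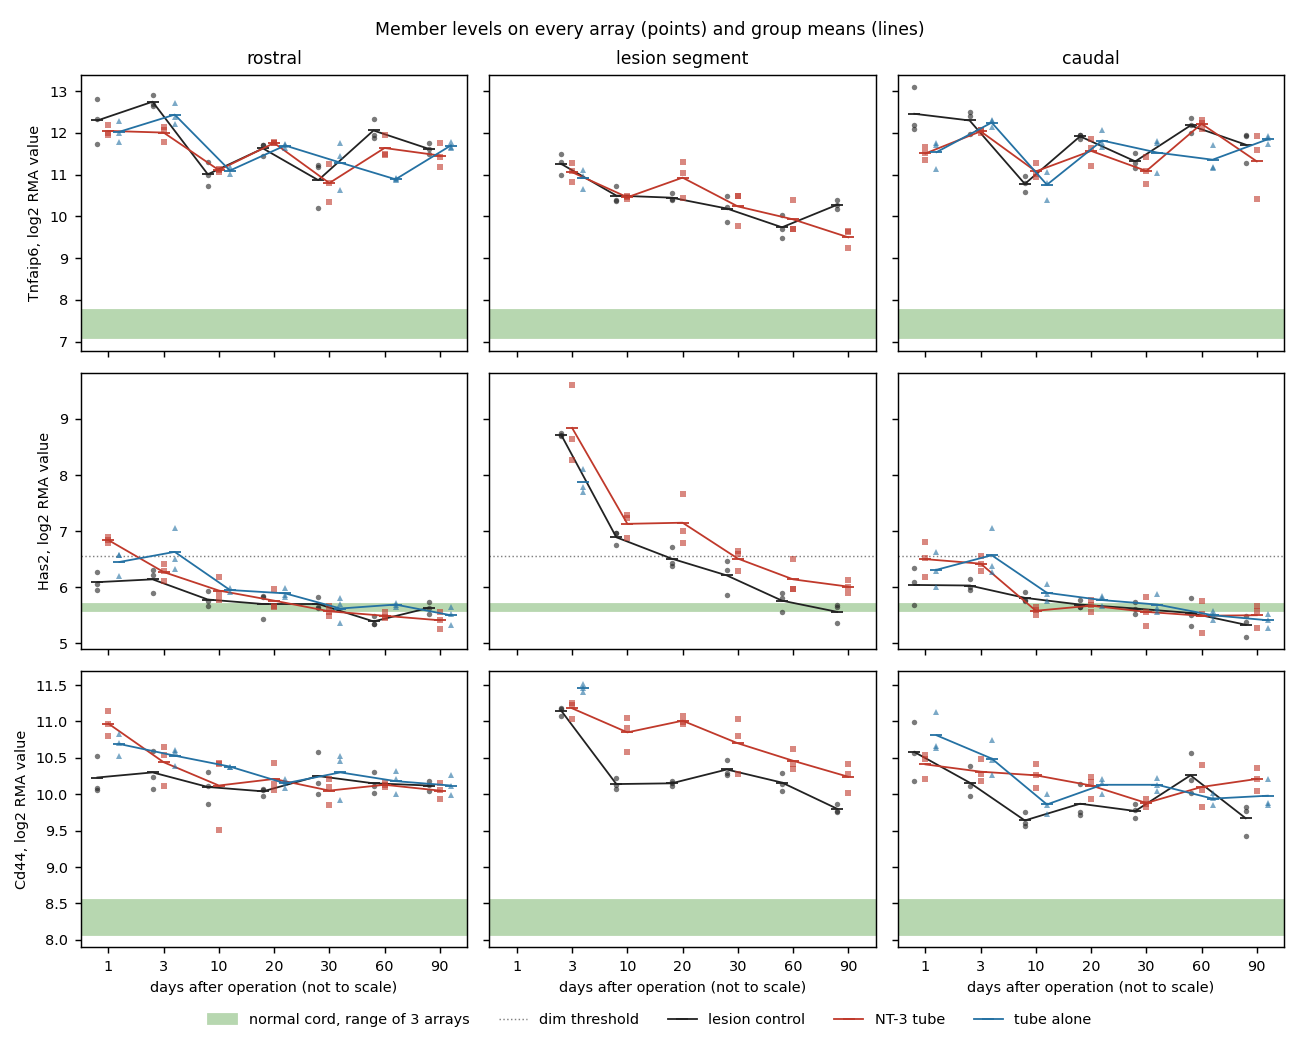
Log2 RMA value of Tnfaip6, Has2 and Cd44 (rows) on each array (points) with group means (lines), by segment (columns), day and arm; the green band is the range of the 3 normal arrays and the dotted line in the Has2 panels the dim level of 6.55. Tnfaip6 and Cd44 stayed above the band on every injured array. The Has2 group mean was at or above the dim level in 6 of 13 lesion groups, 2 of 21 rostral groups and 1 of 21 caudal groups. The Has2 mean of lesion control at the lesion on day 3 was 8.72.

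Ordered by level over the 56 cord groups, neighbouring groups overlapped in 54 of 55 pairs for Tnfaip6, 53 of 55 for Has2 and 52 of 55 for Cd44, so the order of single neighbours carries little. Normal cord was lowest for Tnfaip6 and Cd44 and ranked 39 of 56 for Has2. Over the 56 group means the members correlated with Pearson's r = 0.73 for Has2 and Cd44, 0.33 for Tnfaip6 and Cd44 and -0.05 for Tnfaip6 and Has2. Within the 13 lesion groups these values were 0.85, 0.72 and 0.87. The points share arms, days and processing, and the values are descriptions.

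Among 11988 other genes, the patterns nearest to Tnfaip6 by Pearson's r over the 56 group means were Pdpn (0.864), which encodes podoplanin, Rcan1 (0.815), a calcineurin regulator, and Mt2A (0.802), a metallothionein. The nearest to Cd44 were Plaur (0.908), the urokinase receptor, Slc39a6 (0.893), a zinc transporter, and Cd14 (0.891), a co-receptor for lipopolysaccharide. Those nearest to Has2 were Pabpc4 (0.955), Ascc2 (0.953) and the amino acid transporter gene Slc38a4 (0.951). Has2 is high in the 3 lesion groups of day 3, and without them, over 53 groups, these values were 0.946, 0.913 and 0.905.

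Set between segments, the 3 genes went different ways. Tnfaip6 was lower at the lesion than rostrally in lesion control, by 1.49 ± 0.24 on day 3, when the groups read 11.30, 10.99 and 11.49 against 12.90, 12.65 and 12.70. On day 60 the gap was widest, with 9.71, 9.49 and 10.03 against 12.33, 11.95 and 11.89 (-2.31 ± 0.24, 4.97-fold, adjusted p = 5.67e-15). It was -1.18 ± 0.24 on day 20, -0.68 ± 0.24 on day 30 and -1.34 ± 0.24 on day 90, and on day 10 it was -0.51 ± 0.24 with adjusted p = 0.0602. The day 30 groups overlapped, and that call was lost with array weights, which turned the difference to 0.07, with only the compared groups, with the mean of the probe sets and without arrays numbered 1.

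Has2 ran the other way. Lesion arrays of day 3 stood 2.58 ± 0.18 above rostral ones (adjusted p = 1.72e-25), which were dim, those of day 10 1.11 ± 0.18, of day 20 0.81 ± 0.18 and of day 30 0.51 ± 0.18. The differences of 0.36 ± 0.18 on day 60 and -0.06 ± 0.18 on day 90 were not called. The day 30 call was lost without arrays numbered 2. Cd44 was higher at the lesion than rostrally on day 3 only in lesion control (0.85 ± 0.16, adjusted p = 2.22e-06), and the differences of the other days lay between -0.32 and 0.11. In all, 5 of 18 tests were called higher and 5 lower at the lesion, where 31.5% and 28.5% of all tests were. Against the caudal segment 7 were called higher and 5 lower (31.2% and 29.8% of all tests).

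Between rostral and caudal lesion control, none of 21 tests was called in either direction in limma, 4 had an unadjusted p under 0.05, and of all tests 0.341% were called higher and 0.247% lower. The differences, rostral minus caudal, lay between -0.45 and 0.47. For Cd44 the difference was 0.45 ± 0.16 on day 10, 0.47 ± 0.16 on day 30 and 0.44 ± 0.16 on day 90, none called. It lay above 0 on 5 of 7 days and below 0 on 2, to -0.35. With array weights 5 of the 21 tests were called higher and 1 lower, and the share of all genes called with those weights is not given here. In the NT-3 tube arm, Tnfaip6 was lower at the lesion than rostrally on 6 of 6 days and Has2 higher on 6 of 6, and Cd44 was higher on 4 of 6 (days 3 to 30), in all 10 called higher and 6 lower of 18, against 33.9% and 29.3% of all tests. The lesion and rostral blocks differed in cell markers as well. In lesion control the mean of the 6 astrocyte markers ran from 8.90 to 10.52 at the lesion and from 11.20 to 11.37 rostrally on day 3, and that of the 7 fibroblast and meningeal markers from 12.20 to 12.40 and from 10.88 to 11.39. On day 60 the 7 microglia and macrophage markers were all lower at the lesion than rostrally, with means over the list of 9.08 and 10.01, on a day when 32.4% of all genes were called lower. The part of cell composition in the members' differences was not tested.

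**Figure D2:**
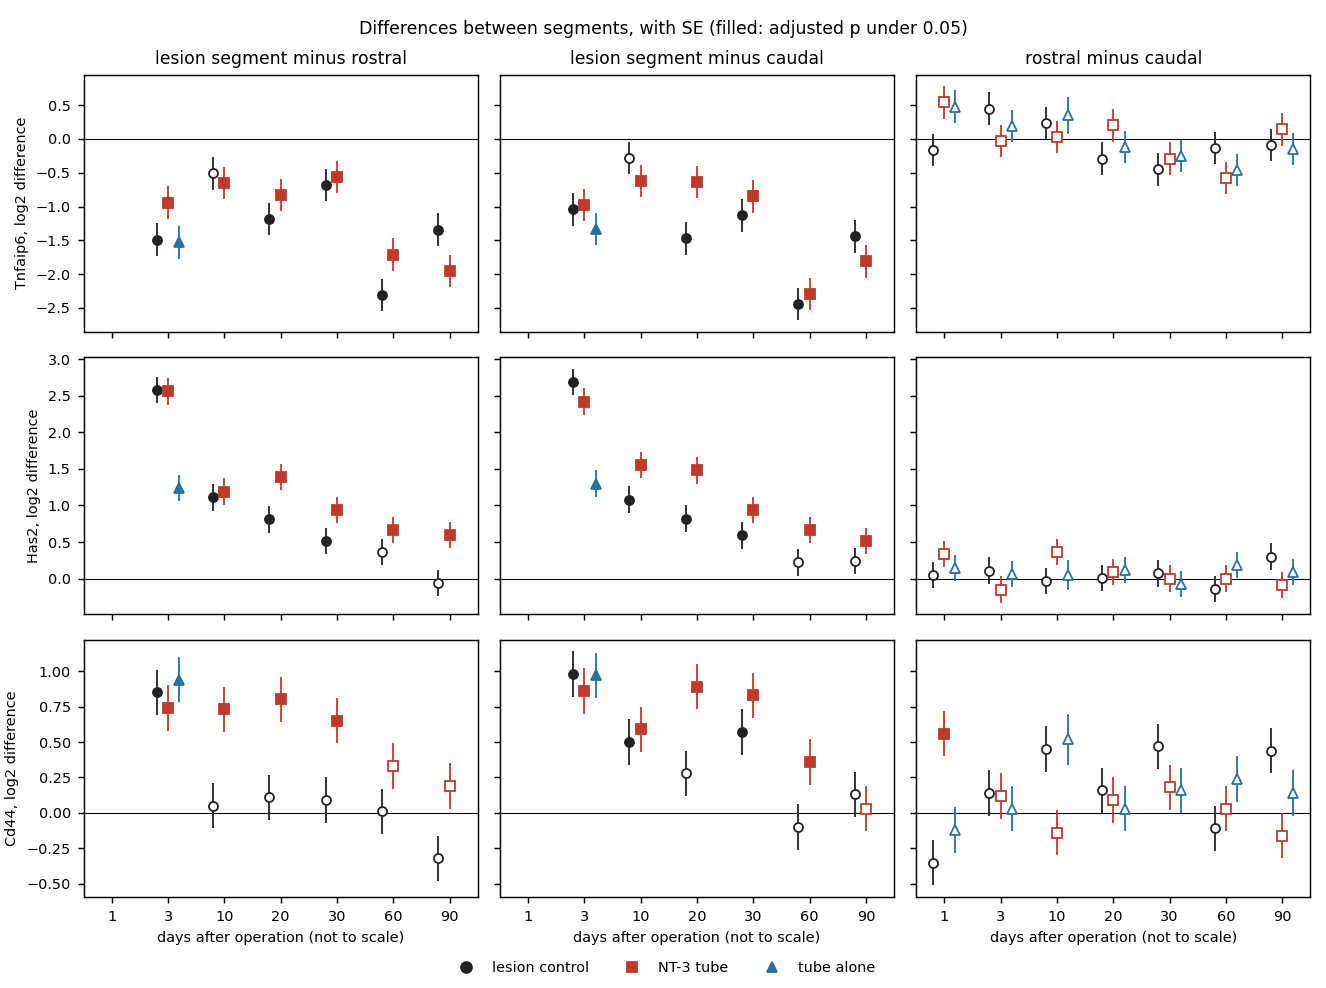
Log2 difference between segments with its standard error for Tnfaip6, Has2 and Cd44 (rows) by day and arm; filled symbols are called, open ones are not. In lesion control Tnfaip6 lay below 0 in the lesion minus rostral panel, to -2.31 on day 60. Has2 lay above 0 there through day 60, with filled symbols through day 30. Rostral minus caudal symbols of lesion control were open.

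Between NT-3 tube and lesion control, the member with most calls was Cd44 at the lesion. On day 10 its arrays read 10.58, 10.91 and 11.05 in NT-3 tube against 10.23, 10.07 and 10.13 in lesion control (0.70 ± 0.13, 1.63-fold, adjusted p = 0.000913). On day 20 they read 10.99, 10.97 and 11.07 against 10.18, 10.11 and 10.16 (0.86 ± 0.13, adjusted p = 8.31e-06), and on day 90 10.41, 10.28 and 10.02 against 9.76, 9.77 and 9.87 (0.44 ± 0.13, adjusted p = 0.015). The groups did not overlap on these days. The differences of day 3 (0.03 ± 0.13), day 30 (0.36 ± 0.13) and day 60 (0.30 ± 0.13) were not called. RT1-CE10 differed in the same direction by 0.54 on day 10, 2.58 on day 20 and 3.86 on day 90. Of all genes, 2.80%, 19.5% and 16.5% were called higher on those days. The day 10 call was lost without arrays numbered 2, and the day 90 call without those numbered 1 and without those numbered 2. Tube alone had no lesion arrays after day 3, so there the tube and its NT-3 cannot be told apart for any member. Between NT-3 tube and tube alone Cd44 had no call in any segment. At the lesion on day 3 that difference was -0.29 ± 0.13 (adjusted p = 0.12 in limma).

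Cell markers moved at the lesion too. On day 20 the mean of the 4 skeletal muscle markers was 10.97 in lesion control (10.16 to 11.57 over arrays) and 6.18 in NT-3 tube (4.86 to 7.59), with 4 of 4 lower, where 14.3% of all genes were. On the same day 4 of 7 microglia and macrophage markers were higher in NT-3 tube (array means 9.97 to 10.12 against 9.30 to 9.47) and 5 of 5 tested neuron markers were lower. On day 10 the muscle means were 9.62 and 6.20 and 2 of 7 microglia and macrophage markers were higher. On day 90 muscle was lower in 4 of 4 markers, neuron in 5 of 5, and microglia and macrophage markers higher in 1 and lower in 2 of 7. Their part in the Cd44 difference was not tested.

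The remaining calls between NT-3 tube and lesion control were single days. Has2 was higher at the lesion on day 20, with 7.01, 6.78 and 7.67 against 6.38, 6.71 and 6.43 (0.65 ± 0.22, adjusted p = 0.0245), a call lost with only the compared groups, without arrays numbered 2 and without the one numbered 5. On that day RT1-CE10 differed by more than 1 unit at the lesion, and 19.5% of all genes were called higher. Rostrally on day 1, Has2 read 6.84, 6.79 and 6.90 against 5.95, 6.27 and 6.06 (0.75 ± 0.13, adjusted p = 4.36e-05). Has2 reached the rostral fit through this NT-3 tube group and 1 of tube alone, so the group tested helped to select it, and with no dim filter its adjusted p was 5e-05. Cd44 read 10.80, 11.14 and 10.97 against 10.09, 10.06 and 10.53 (0.74 ± 0.17, adjusted p = 0.00105), on a day when RT1-CE10 differed by 4.08 and 17.3% of all genes were called higher. The Cd44 call was lost without arrays numbered 2. Caudal Cd44 was higher on day 10, with 10.09, 10.27 and 10.41 against 9.61, 9.75 and 9.57 (0.61 ± 0.16, adjusted p = 0.0464, RT1-CE10 difference 0.23, 0.305% of genes). That call was lost with no filter on dim genes, with array weights, with only the compared groups, and without arrays numbered 1 or 3. Has2 rostrally on day 1 and Cd44 at the lesion on day 20 were called in each refit with other arrays, weights, filters, priors or probe sets. Both differences were under 2-fold, and on both days RT1-CE10 differed by more than 1 unit, so neither call remains under those stricter conditions.

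Tnfaip6 had no call upward in NT-3 tube against lesion control. It was lower rostrally on day 3, with 12.08, 11.79 and 12.15 against 12.90, 12.65 and 12.70 (-0.74 ± 0.23, adjusted p = 0.0386), caudally on day 1, with 11.52, 11.35 and 11.67 against 12.10, 12.18 and 13.10 (-0.95 ± 0.25, adjusted p = 0.0131), and at the lesion on day 90, with 9.24, 9.65 and 9.62 against 10.28, 10.17 and 10.39 (-0.78 ± 0.22, adjusted p = 0.00926). The groups did not overlap. RT1-CE10 differed by 1.12, 3.87 and 3.86, and 3.23%, 3.43% and 12.3% of all genes were called lower. The rostral call was lost without the arrays of any 1 number from 1 to 3, with array weights and with the mean of the probe sets, the caudal one without arrays numbered 1 or 3, both with only the compared groups, and the lesion one without those numbered 1.

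In all, NT-3 tube against lesion control gave 2 calls higher and 1 lower of 21 rostrally (3.63% and 2.81% of all tests), 4 higher and 1 lower of 18 at the lesion (12.1% and 9.57%) and 1 higher and 1 lower of 21 caudally (1.11% and 0.901%). Of these 10 calls, out of 60 tests, 8 fell on days when the RT1-CE10 means of the arms differed by more than 1 log2 unit. The remaining pair, out of 33 tests on days within 1 unit, was Cd44 on day 10 at the lesion and caudally. For the 8, between 3.23% and 19.5% of all genes were called in the same direction in the same contrast. For the pair these shares were 2.80% and 0.305%. The split is a description and not a result about the members.

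Tube alone was lower than lesion control in Has2 at the lesion on day 3. Lesion arrays read 8.11, 7.70 and 7.79 in tube alone and 8.75, 8.72 and 8.70 in lesion control (-0.86 ± 0.22, adjusted p = 0.0186, 5.22% of genes lower). Rostral arrays read 6.32, 6.51 and 7.05 against 6.31, 6.22 and 5.90 (0.48 ± 0.13, adjusted p = 0.027, 1.70% of genes higher), and caudal arrays 6.38, 6.27 and 7.06 against 5.95, 6.00 and 6.15 (0.54 ± 0.16, adjusted p = 0.049, 1.60%). RT1-CE10 differed by -0.08, 0.44 and 0.16 on these days. In each outer segment 1 tube alone array, at 7.05 and 7.06, stood above the other two. The lesion and rostral calls were each lost with the second quantile normalization, with only the compared groups, and without arrays numbered 2 or 3. Has2 entered the caudal fit only through this tube alone group, and the caudal call held under none of 9 alternative fits, with adjusted p = 0.0558 with no dim filter. The rostral group was likewise 1 of 2 through which Has2 entered that fit, where adjusted p was 0.0284 with no dim filter. The muscle markers at the lesion averaged 5.22 in tube alone and 8.82 in lesion control, where arrays ran from 6.44 to 11.72, and the part of this in the Has2 difference was not tested.

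NT-3 tube stood above tube alone in Has2 at the lesion on day 3, with 8.26, 8.65 and 9.60 against 8.11, 7.70 and 7.79 (0.97 ± 0.22, adjusted p = 0.0022, RT1-CE10 difference 1.28, 16.0% of genes higher). The NT-3 tube array at 9.60 stood above the rest of its group. Calls of NT-3 tube against tube alone were not followed through the refits. For Tnfaip6, tube alone was lower than lesion control rostrally on day 60, with 10.92, 10.87 and 10.89 against 12.33, 11.95 and 11.89 (-1.16 ± 0.23, 2.24-fold, adjusted p = 0.000484). NT-3 tube, at 11.95, 11.50 and 11.47, was above tube alone on that day (0.75 ± 0.23, adjusted p = 0.0153). RT1-CE10 was 3.04 higher in tube alone than in lesion control and 3.19 lower in NT-3 tube than in tube alone (-3.19), and 10.1% and 15.0% of all genes were called lower and higher. Caudally on day 1 Tnfaip6 was lower in tube alone than in lesion control (-0.92 ± 0.25, adjusted p = 0.0179, RT1-CE10 difference 4.02, 2.54% of genes), a call lost with only the compared groups and without arrays numbered 1 or 3. Cd44 had no call between tube alone and lesion control. In all, tube alone against lesion control gave 1 call higher and 1 lower of 21 rostrally (4.38% and 4.74% of all tests), 0 and 1 of 3 at the lesion (1.88% and 5.22%) and 1 and 1 of 21 caudally (1.05% and 0.874%). The lesion count of 0 higher in limma compares with 1 at an unadjusted p under 0.05.

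**Figure D3:**
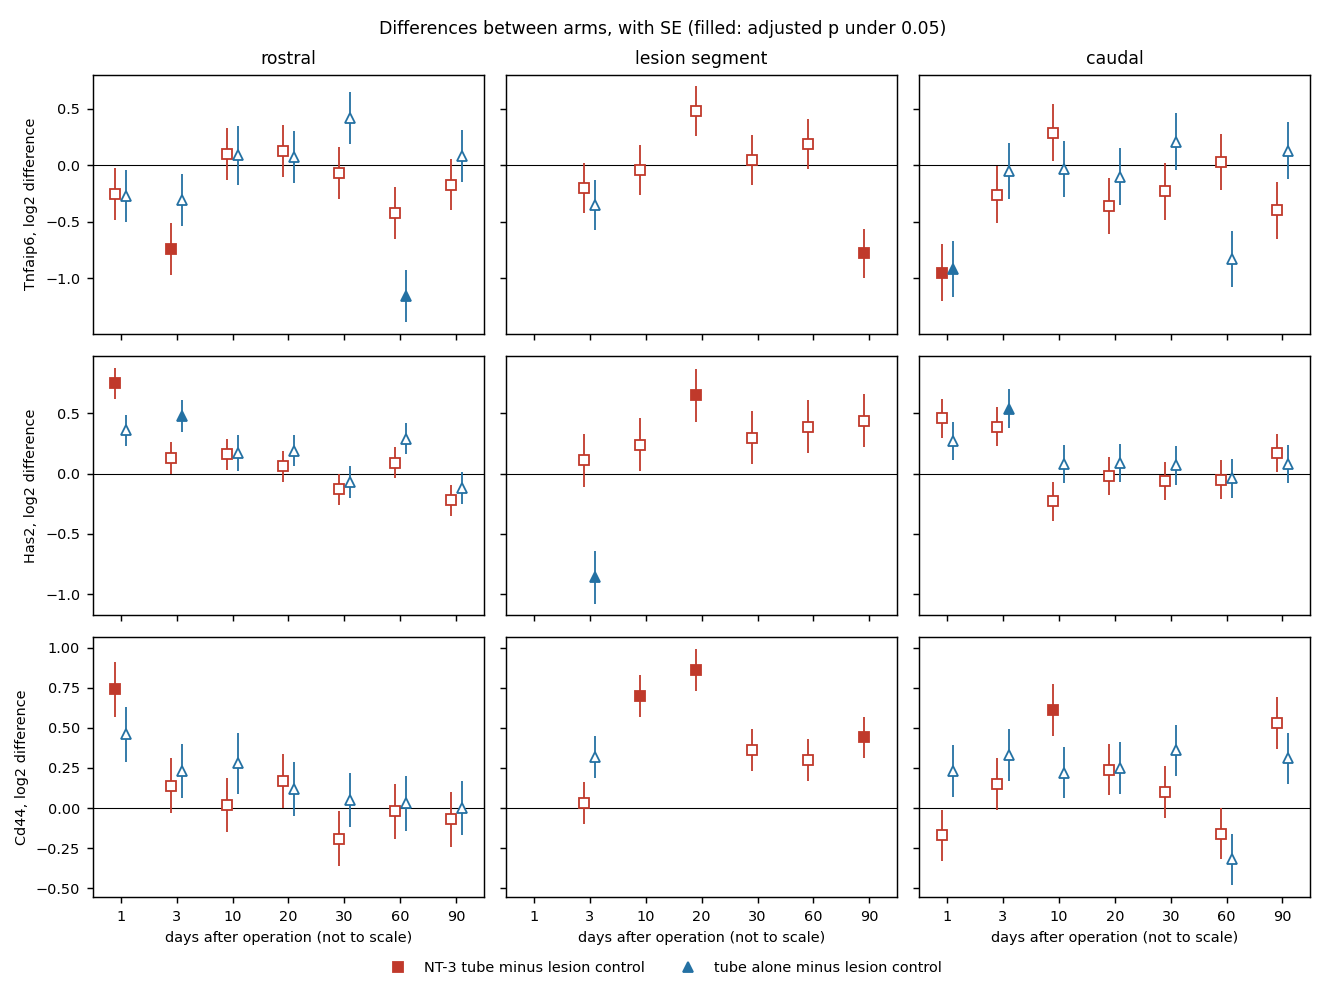
Log2 difference from lesion control with its standard error for NT-3 tube (squares) and tube alone (triangles), by member (rows), segment (columns) and day; filled symbols are called. Cd44 at the lesion had filled squares on days 10, 20 and 90, and the Tnfaip6 symbol of tube alone reached -1.16 rostrally on day 60.

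Whether the difference between NT-3 tube and lesion control changed with the day was tested as an interaction within each segment. It was called for Cd44 at the lesion (adjusted p = 0.00758) and rostrally (0.0453), for Tnfaip6 at the lesion (0.0254) and for Has2 rostrally (0.00365), 4 of 9 tests, against 29.6% of all tests. Has2 at the lesion was not called (adjusted p = 0.67), nor was Tnfaip6 rostrally (0.212) or any member caudally (0.0585 for Cd44, 0.154 for Has2 and 0.168 for Tnfaip6). Without arrays numbered 2 none of the 9 was called, and without those numbered 1 or 3 there were 2 calls. The RT1-CE10 difference between these arms changed with the day as well, and its part in the interaction was not tested.

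The enzymes that make hyaluronan's sugar nucleotides were higher at the lesion in lesion control on day 3, when Has2 was highest. Of 4 tested genes of 7 listed, 4 were called higher, with a median difference from normal cord of 1.28 against 0.11 for all genes. On that day 42.3% of all genes were called higher. Over the 6 days 19 of 24 lesion tests were called higher and 3 lower, on days 10, 20 and 90, against 37.8% and 34.5% of all tests. Gfpt2, which opens the hexosamine pathway, rose by 2.37 ± 0.17 and Ugdh, which makes UDP-glucuronic acid, by 1.67 ± 0.12. Gnpnat1, an acetyltransferase of the same pathway, was 1.11 ± 0.16 higher on day 30. Outside the lesion 16 of 35 gene-by-day tests were called higher rostrally and 7 of 35 caudally. Against these, 26.2% and 24.8% of all tests were called.

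Of 6 tested genes of hyaluronan breakdown, 5 were called higher at the lesion on each day and 1 was called lower on days 3, 10 and 60. That made 30 higher and 3 lower of 36 tests, against 37.8% and 34.5% of all tests. Cemip, a protein needed for hyaluronan depolymerisation, differed most on day 10 (12.26 ± 0.08 SD against 7.54 ± 0.22 in normal cord, n = 3 each, 26.2-fold), when Has2 had fallen. The lysosomal enzymes Gusb (3.12 ± 0.13) and Hexa (2.38 ± 0.09) differed most on the same day. The list's median on day 10 was 2.26 against 0.05 for all genes, of which 38.3% were called higher. Among the other receptors, 5 of 6 were higher and 1 lower at the lesion on day 3, where 42.3% and 34.8% of all genes were, with Lyve1, the lymphatic hyaluronan receptor, up by 4.29 ± 0.20, Tlr2, a receptor of innate immunity, by 4.14 ± 0.13 and the scavenger receptor Stab1 by 3.80 ± 0.19. The list's median was 3.36 then, against 0.11 for all genes.

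Proteoglycans and link proteins that bind hyaluronan in normal cord matrix were mostly lower. At the lesion 28 of 36 gene-by-day tests were called lower and 4 higher, rostrally 30 of 49 lower and 10 higher, and caudally 29 of 49 lower and 8 higher, where 34.5%, 29.0% and 26.1% of all tests were called lower. Hapln4, a link protein of perineuronal nets, fell by 4.56 ± 0.30 on day 10, Hapln2, found at nodes of Ranvier, by 4.23 ± 0.37 on day 30 and Bcan, encoding brevican, by 2.83 ± 0.33 on day 3, each at the lesion. On day 3 at the lesion 5 of 5 neuron and 3 of 3 oligodendrocyte markers tested were lower as well, and their part was not tested. Among the inter-alpha-inhibitor chains, from which Tnfaip6 takes heavy chains, 3 of 6 listed genes were tested. At the lesion 4 of 18 gene-by-day tests were called higher and 6 lower, against 37.8% and 34.5% of all tests. Rostrally 2 of 21 were higher and 5 lower (26.2% and 29.0% of all tests), and caudally 1 of 21 and 2 (24.8% and 26.1%). The 2 genes named next had the largest called differences of this list. Itih3 fell by 4.87 ± 0.65 at the lesion on day 3, where its SD over 3 arrays was 2.16, and Itih2 rose by 1.64 ± 0.26 on day 60.

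Genes coupled to Cd44 were mostly higher as well. Of the 7 linkers, ligand and sheddases, 39 of 49 gene-by-day tests were called higher rostrally, 31 of 42 at the lesion and 37 of 49 caudally, and 1 lower, at the lesion. Of all tests 26.2%, 37.8% and 24.8% were called higher. Mmp14, a membrane protease that can cleave CD44, was 3.92 ± 0.15 higher at the lesion on day 10. Spp1, osteopontin, was 3.06 ± 0.21 higher and Msn, moesin, which ties CD44 to actin, 2.22 ± 0.08 higher on day 3. The inflammatory inducers were called higher in 18 of 35 tests rostrally, 19 of 30 at the lesion and 23 of 28 caudally, against the same 26.2%, 37.8% and 24.8%. Il6 rose by 5.70 ± 0.35 rostrally on day 1, from a dim 3.95 in normal cord, and at the lesion on day 3 Il1b rose by 4.04 ± 0.29 and Tgfb1 by 2.63 ± 0.16.

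**Figure D4:**
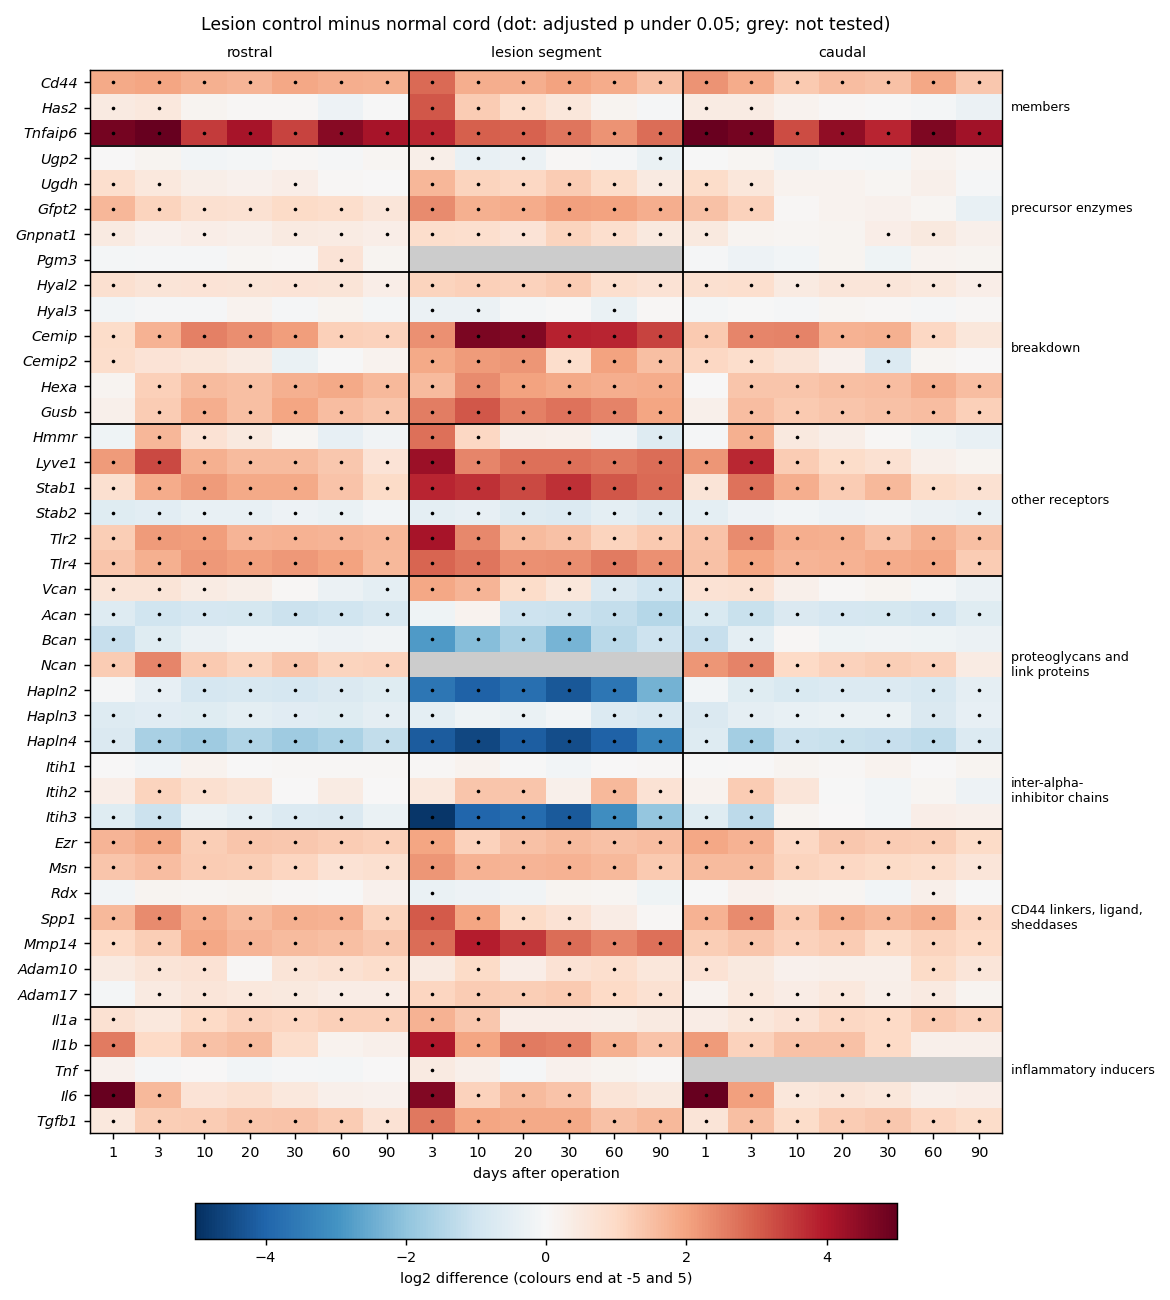
Log2 difference of lesion control from normal cord for the 3 members and the tested genes of the pathway lists (rows), by segment and day (columns); red is higher, blue lower, dots mark calls and grey marks genes not tested in that segment. Tnfaip6 and Cd44 form unbroken red rows with dots, Has2 is most strongly red at the lesion on day 3, and Hapln2 and Hapln4 are blue at the lesion.

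Between NT-3 tube and lesion control at the lesion, several of these genes were called on the days when Cd44 was. On day 20, 5 of 5 inducers were higher, with Il1b at 11.78 ± 0.51 (SD, n = 3) against 8.67 ± 0.08 (3.10 ± 0.29) and Il6 at 9.36 ± 1.51 against 5.54 ± 0.51 (3.82 ± 0.41), and the list's median was 3.08 against 0.04 for all genes, of which 19.5% were called higher. On days 10 and 90, 1 of the 5 was higher. Of the Cd44 linkers, ligand and sheddases 2 of 7 were higher on day 10, 4 on day 20, with 1 lower, and 6 on day 90. Of all genes 2.80%, 19.5% and 16.5% were called higher on these days. Spp1 was higher by 0.80 ± 0.21 on day 10, 1.85 ± 0.21 on day 20, 2.11 ± 0.21 on day 30, 1.69 ± 0.21 on day 60 and 1.71 ± 0.21 on day 90, and was not called on day 3 (-0.10 ± 0.21). Among the precursor enzymes Gfpt2 was higher by 0.92 ± 0.17 on day 20, the day of the Has2 call, and by 0.72 ± 0.17 to 0.74 ± 0.17 on days 3, 60 and 90, when Has2 was not called. Cemip was lower on day 10 (-0.61 ± 0.15), higher on days 3, 30, 60 and 90, by 0.46 ± 0.15 to 0.93 ± 0.15, and not called on day 20. RT1-CE10 was within 1 unit between these arms at the lesion on 3 of 6 days, and not on days 20 and 90. Its part in these differences was not tested.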

How the data were processed

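Per the submitters' processing notes, the authors processed Affymetrix rat genome arrays with Expression Console and RMA (versions: not given in the sources used here). Deposited values are log2 RMA signals of 31099 probe sets on 172 arrays. RMA equalises arrays and compresses low signals. Precision is limited by how many arrays a group has. Symbols came from the platform annotation: 20832 probe sets had 1 symbol, 436 several, and 9831 were unlisted. 20764 of those with 1 symbol were in the rat gene table.

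Genes entered a test if any group mean reached the 40th percentile of values (6.55), which left 11553 genes rostrally, 11922 at the lesion and 11479 caudally. limma 3.58.1 in R 4.3.3 (lmFit, eBayes) fitted each segment with normal cord, or all cord arrays for contrasts between segments, with 1 mean per group. P-values were adjusted by Benjamini-Hochberg within each contrast. The fit was tested on simulated data. Figures used Python 3.11.15, pandas 2.3.3, numpy 2.4.6 and matplotlib 3.10.9.

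The members and lists were chosen with earlier results of these data known. Genes named are the members, up to 3 genes of each pathway list with the largest called difference between lesion control and normal cord, the 3 nearest in pattern to each member, and RT1-CE10. Values of these genes in the comparison of arms are given for those called at the lesion, chosen after their values were seen. List genes without a probe set here, among them Has3, Gfpt1 and Uap1, were not analysed here. Labels call the arrays of a group biological replicates of pooled tissue, so p-values measure the spread between pools. Replicate numbers were taken as names, not as pairs. 1 lesion group is numbered 2, 3 and 5. Day 60 is in the labels but not in the design text. Alternatives were array weights, no filter on dim genes, quantile normalization run again, a trended and robust eBayes prior, the replicate number as a block, a fit of only the compared groups, the mean or the most variable probe set of a gene, a 2-fold minimum, only days with RT1-CE10 within 1 log2 unit, and leaving out arrays by number.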

Additional observations from a re-analysis of the deposited data

Results flagged for a closer look

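The 5 arrays of universal reference RNA take part in no comparison. They read 8.42 on average for Tnfaip6, 7.16 for Has2 and 10.91 for Cd44, and for each gene the 5 lay above the 3 normal cord arrays. The lowest Has2 reference array read 6.88, apart from the other four at 7.19 to 7.28. Its gap was 0.775 of the range, past Dixon's critical value, which chance alone passes in about 1 in 20 groups.

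The difference between NT-3 tube and lesion control changed with the day, by the interaction test in limma, for Cd44 at the lesion (adjusted p = 0.00758) and rostrally (0.0453), for Tnfaip6 at the lesion (0.0254) and for Has2 rostrally (0.00365). For Cd44 at the lesion the difference was 0.03 on day 3 and 0.86 on day 20. For Tnfaip6 at the lesion it was 0.48 on day 20 and -0.78 on day 90. For Has2 rostrally it was 0.75 on day 1 and -0.22 on day 90. Of all interaction tests 29.6% were called. RT1-CE10 differed between the arms by more than 1 unit at the lesion on days 20 and 90 and rostrally on day 1. Its part in these changes was not tested. Without arrays numbered 2 none of the 4 was called.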

How the results depend on the processing

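Of 73 single calls, 44 of 48 of lesion control against normal cord, 8 of 10 of lesion against rostral and 3 of 15 between an implant arm and lesion control were called in each refit. With a 2-fold minimum as well these were 42, 6 and 1, and the last was on a day with RT1-CE10 over 1 unit apart. The 42 calls against normal cord were not held to that limit. RT1-CE10 of rostral lesion control on day 30 was more than 1 unit above normal cord. Calls against the caudal segment, of NT-3 tube against tube alone, and of either tube against normal cord were not followed in this way. The 1 reversal was Tnfaip6 at the lesion against rostral on day 30, 0.07 with array weights. Counts below are of member-by-day tests. The shares of all genes called in these refits are not given here. The counts therefore cannot tell a change in the members from a change in calls over all genes. With array weights, whose estimation did not fully converge, NT-3 tube against lesion control gave 4 higher and 0 lower rostrally, 8 higher at the lesion, and 4 higher and 2 lower caudally. Tube alone then gave 5 higher rostrally, 1 higher at the lesion, and 2 higher and 2 lower caudally. Rostral against caudal gave 5 higher and 1 lower, the steps 23 and the interaction 8. With a 2-fold minimum NT-3 tube gave 0 in each segment and direction, tube alone 0 except 1 lower rostrally, lesion against rostral 2 higher, and the steps 6. On days with RT1-CE10 within 1 unit NT-3 tube gave 0 rostrally, 1 higher and 0 lower at the lesion and 0 lower caudally, and tube alone 0 lower rostrally and caudally. With only the groups in a contrast NT-3 tube gave 0 lower rostrally and caudally, and tube alone 0 higher rostrally, 0 lower at the lesion, and 0 higher and 0 lower caudally. No dim filter left 0 higher caudally for either tube. The second quantile normalization left tube alone 0 higher rostrally and caudally and 0 lower at the lesion. The mean of probe sets left NT-3 tube 0 lower rostrally and gave tube alone 2 higher rostrally, as did the most variable probe set, with 0 caudally for both and 1 rostral over caudal for the latter. The trended prior left tube alone 0 higher caudally.

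Same-numbered arrays of different arms deviated from their group means with a median r of 0.024 over 147 pairs, 54 of them over 0.1, against -0.023 and 87 of 297 for other numbers. Between segments the median was 0.065 over 138 pairs, 64 over 0.1, against -0.014 and 74 of 282. The numbers were not used to pair arrays, under a rule that asked every pair to pass 0.1. Noisy arrays can fail that rule even when paired, so it cannot decide whether same-numbered blocks share animals. Between segments same numbers passed 0.1 more often than other numbers, and the main fit of segment differences takes no account of this. The replicate block gave tube alone 2 higher rostrally and 0 caudally and moved no other count by over 1.5 times. Its correlations were 0.089 rostrally, -0.059 at the lesion, -0.005 caudally and 0.054 over all segments.

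Leaving out arrays by number, counts ran from 15 to 16 rostrally, 15 to 16 at the lesion and 14 to 16 caudally against normal cord. NT-3 tube ran from 1 to 2 higher and 0 to 0 lower rostrally, 1 to 6 higher and 0 to 1 lower at the lesion, and 0 to 1 in either direction caudally. Tube alone ran from 0 to 1 higher and 1 to 1 lower rostrally, 0 to 1 lower at the lesion, and 0 higher and 0 to 1 lower caudally. Lesion against rostral ran from 4 to 5 in either direction, the steps from 6 to 12 and the interaction from 0 to 4. Leaving out the array numbered 5 was chosen after seeing the data. Has2 was not tested caudally under the second quantile normalization and without arrays numbered 3, where it was too dim.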
